A study of Mus musculus with 6 samples.

Results

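Netrins and their receptors were read in the adult mouse retina as a set of 10 genes, out of 18193 genes measured: the ligands Ntn1, Ntn3 and Ntn4, the attractive receptor Dcc and its relative Neo1, the UNC5 receptors Unc5a, Unc5b, Unc5c and Unc5d, and Dscam. The members were chosen by name, and each probe set whose annotated symbol was exactly 1 of these names was taken, which gave 24 of 45037 probe sets. A probe set is a group of short oligonucleotides on the array that together read 1 transcript, and the brightest probe set of a gene, by its mean over the 6 arrays, stood for that gene. RNA came from the retinas of 3 WT and 3 Trim9 KO adult mice, which were littermates, and each sample was hybridized to 1 Affymetrix mouse genome array. The KO animals lack exon 1 of Trim9, which was cut out by crossing with CMV-cre mice, a line that drives the Cre recombinase broadly rather than in the retina alone. The labels give neither sex nor an age beyond adult, and a note on handling speaks of embryos whereas the tissue is given as adult retina.

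Netrins are secreted proteins related to laminin that steer growing axons. DCC draws axons toward netrin, whereas the UNC5 receptors, alone or together with DCC, turn them away. In the retina, ganglion cell axons need netrin at the optic disc to leave the eye, and DSCAM keeps the cell bodies and processes of like neurons apart. TRIM9 is a ubiquitin ligase that binds DCC and takes part in the response of cortical axons to netrin, and the study asked whether retinas without it differ in their RNA.

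In the Trim9 KO retinas, the mean of 7 of the 10 genes was higher and that of 3 lower, and none passed the test. The largest differences were those of Unc5b, whose log2 fold change (KO over WT) was 1.95 (standard error 1.17), and Unc5c, at 1.73 (standard error 1.09). Dscam followed at 1.20 (standard error 0.90), and Ntn4 had the lowest value, at -0.80 (standard error 1.33). The log2 fold change of the 10 genes had a median of 0.60, beside 0.14 over all genes. Over all genes 55.2% had a higher and 44.8% a lower mean in KO, so a split of 7 to 3 is not far from the background. It was 6 to 4 after quantile normalization and with equal array medians, under both of which Dcc was lower, and 10 to 0 with array weights. The share of all genes with a higher mean was not read in these settings, so no background stands beside these splits. The test was limma on log2(intensity + 16) across all probe sets, with Benjamini-Hochberg adjusted p-values and a threshold of 0.05. At that threshold 0 of the 10 members were called (lowest adjusted p = 0.999 in limma), as were 0% of all genes. At an unadjusted p under 0.05, 0 of the 10 members and 2.56% of all genes were found. Fewer cells of a type and less RNA per cell cannot be told apart in these bulk samples.

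The 6 arrays did not resemble each other equally. Across probe sets, Trim9 KO replicate 1 correlated with the remaining arrays at a Pearson's r of 0.47 to 0.52, whereas those arrays correlated with each other at 0.66 to 0.89. Median intensities were 218 to 807, and the ratio of 3′ to 5′ signal of the Actb control, which grows as RNA is degraded, was 3.43 to 20.2 on the WT and 2.83 to 94.5 on the KO arrays. That of the Gapdh control was 0.905 to 310 on the WT and 134 to 163 on the KO arrays, so the controls ordered the arrays differently. Trim9 itself, read by its brightest probe set, had intensities of 4226, 1767 and 1667 on WT replicates 1, 2 and 3 and of 1498, 497 and 367 on KO replicates 1, 2 and 3. The KO values were all below the WT values, although where the probe set lies relative to exon 1 is not known here. The series text gives 3 mice per genotype, and each array was taken as 1 mouse. The number of arrays limits the precision, and with 3 arrays against 3 the smallest p of the two-sided exact permutation tests given below is 0.1.

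**Figure D1:**
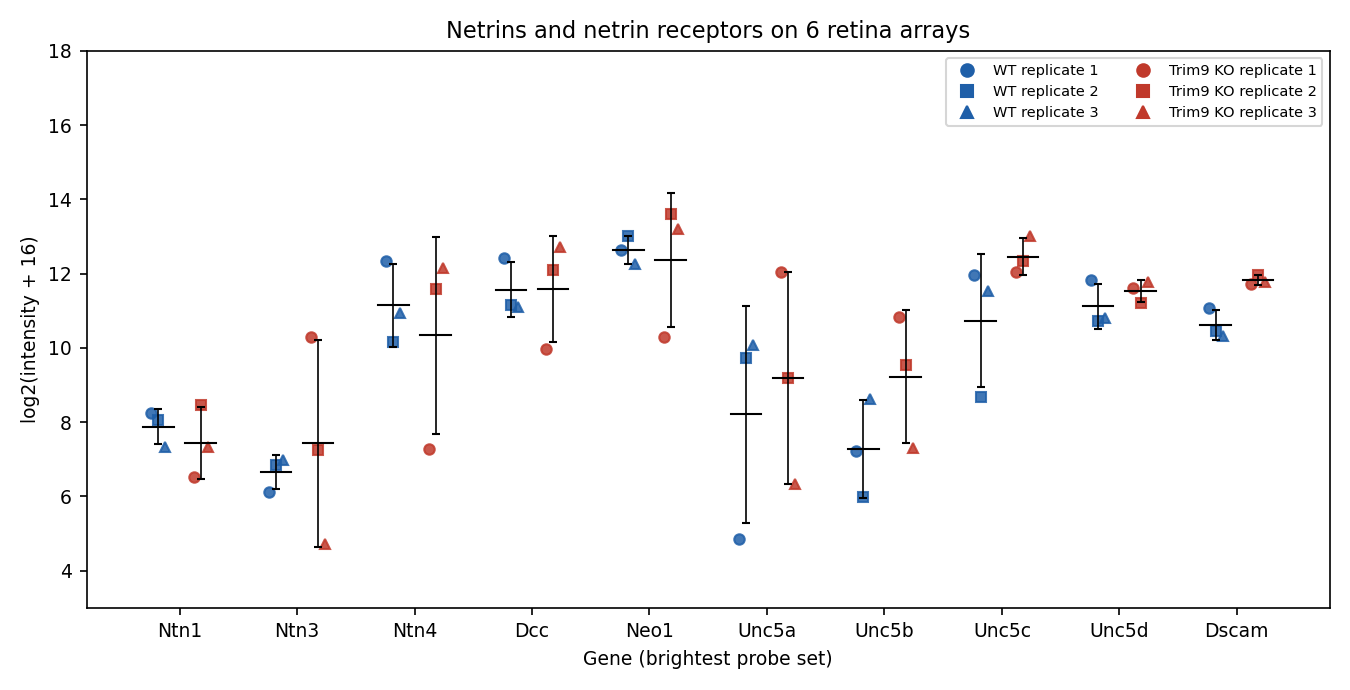
Log2(intensity + 16) (y axis) of the brightest probe set of each gene (x axis) on the 6 arrays; each point is an array (blue WT, red Trim9 KO), horizontal lines are means and bars are SDs. WT and KO points of Unc5c and Dscam do not overlap, and Trim9 KO replicate 1 (red circle) is the lowest point for Ntn1, Ntn4, Dcc and Neo1 and the highest for Ntn3, Unc5a and Unc5b.

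Of the ligands, Ntn1 was dim. Ntn1 encodes netrin-1, the founding attractant of commissural and retinal axons. Its brightest probe set had intensities of 286, 248 and 146 on WT replicates 1, 2 and 3 and of 76.6, 334 and 146 on KO replicates 1, 2 and 3. The lowest and the highest of the 6 values were both KO arrays, and the genotypes overlapped. Its log2 fold change was -0.43 (standard error 0.96, 95% confidence interval -2.54 to 1.68), and the exact permutation p was 0.6. The probe set was brighter than 35.2% of all probe sets. The other Ntn1 probe set, with intensities of 302, 151 and 102 in WT and 930, 11.7 and 213 in KO, gave a log2 fold change of -0.02 (standard error 1.28).

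Ntn3, a netrin known mainly from sensory ganglia and muscle, was read by 1 probe set at the dim end, brighter than 20.6% of all probe sets. Its intensities were 54.1, 99.5 and 109 on the WT arrays and 1249, 137 and 10.3 on KO replicates 1, 2 and 3. The KO values enclosed all WT values, and the higher KO mean (log2 fold change 0.77, standard error 1.32) came from KO replicate 1, since it was -0.67 without that array.

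Ntn4 encodes netrin-4, a component of basement membranes. Its brightest probe set had intensities of 5154, 1124 and 1940 on WT replicates 1, 2 and 3 and of 140, 3056 and 4488 on KO replicates 1, 2 and 3. KO replicates 2 and 3 lay within the WT range and KO replicate 1 far below it. The log2 fold change of -0.80 (standard error 1.33, exact permutation p = 0.8) was 0.72 without KO replicate 1. The second probe set had the opposite order on that array, with 3908 on KO replicate 1 and 23.8, 462 and 11.3 on the WT arrays, 20.9 on KO replicate 2 and 195 on KO replicate 3. Its log2 fold change was 1.96 (standard error 1.66), and 0.14 without KO replicate 1. Across the ligands the genotypes thus overlapped for all 5 probe sets, and KO replicate 1 held an extreme value in each of them.

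Dcc, the receptor to which TRIM9 binds, had almost the same mean in both genotypes. Its brightest probe set had intensities of 5439, 2260 and 2199 on WT replicates 1, 2 and 3 and of 993, 4344 and 6659 on KO replicates 1, 2 and 3. The log2 means were 11.56 ± 0.74 in WT and 11.59 ± 1.43 in KO (SD, n = 3 each), and the KO arrays included both the lowest and the highest value. The log2 fold change was 0.03 (standard error 1.05, exact permutation p = 1), with a 95% confidence interval of -2.27 to 2.33, so that a 4-fold change either way lay inside the interval. It was 0.84 without KO replicate 1 and -0.53 without KO replicate 3. The other Dcc probe sets were dimmer, and their KO means were higher by 0.55 (standard error 1.24) and 1.84 (standard error 1.62) on the log2 scale. In the last of these, WT replicate 3 read 2135 whereas WT replicates 1 and 2 read 11.5 and 74.9.

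Neo1 encodes neogenin, which binds netrins and also the repulsive guidance molecules. Its brightest probe set had intensities of 6353, 8282 and 4921 on WT replicates 1, 2 and 3 and of 1243, 12530 and 9432 on KO replicates 1, 2 and 3. KO replicates 2 and 3 lay above every WT array and KO replicate 1 below every one. The difference on the log2 scale was -0.27 (standard error 1.09, exact permutation p = 1), and 0.77 without KO replicate 1. A further probe set annotated by the same sequence gave 1061, 542 and 416 in WT and 315, 973 and 791 in KO, again with the lowest value on KO replicate 1, and a log2 fold change of 0.01 (standard error 0.96). By the naming of these arrays (_s and _x), probes of the brightest set can match several transcripts and those of the further set can bind other sequences, so both readings are uncertain. The remaining Neo1 probe sets, which are tied to other sequences, had log2 fold changes of -1.41, 2.04 and 1.26. The first of these read 136, 2485 and 2347 in WT and 2999, 45.4 and 244 in KO, a pattern across arrays unlike that of the brightest one.

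All 4 UNC5 receptors had a higher mean in the KO retinas, with log2 fold changes of 0.42 to 1.95 and a median of 1.35. The direction of these 4 held under quantile normalization and with equal array medians, but Unc5a turned to -0.71 without WT replicate 1 and to -0.46 without KO replicate 1. The lowest unadjusted p among them was 0.12 (Unc5b; adjusted p = 0.999 in limma). Every UNC5 gene overlapped between genotypes except Unc5c.

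Unc5a, a receptor through which netrin repels axons, was read by 1 probe set. Its intensities were 12.8, 825 and 1059 on WT replicates 1, 2 and 3 and 4164, 566 and 64.2 on KO replicates 1, 2 and 3. The spread within each genotype (SD 2.92 in WT and 2.85 in KO on the log2 scale) was larger than the log2 fold change of 0.97 (standard error 1.66).

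Unc5b, which is known for its role in endothelial cells of sprouting vessels, had intensities of 134, 47.7 and 378 on WT replicates 1, 2 and 3 and of 1822, 721 and 143 on KO replicates 1, 2 and 3. KO replicates 1 and 2 lay above all WT arrays and KO replicate 3 within their range. The log2 fold change of 1.95 had a 95% confidence interval of -0.62 to 4.52 and an exact permutation p of 0.2, and it was 1.14 without KO replicate 1 and 2.90 without KO replicate 3. In the latter setting Unc5b had an unadjusted p of 0.038 (adjusted p = 0.854, limma). Among the brightest probe sets of the members, an unadjusted p under 0.05 was found in that setting alone. The second Unc5b probe set read 88.8, 130 and 691 in WT and 180, 155 and 216 in KO and had a log2 fold change of -0.16 (standard error 1.03). Of 10 endothelial marker genes, 7 had a higher mean in KO and 3 a lower one (median log2 fold change 0.45; 0.13 with equal array medians), and their mean log2 intensity on these arrays was 7.58 to 9.05 for WT and 7.98 to 9.71 for KO. Without KO replicate 1, 5 of them were higher and 5 lower (median 0.08). The part of endothelial RNA in the Unc5b values was not tested.

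Unc5c, the receptor first found through a cerebellar malformation of mice, had intensities of 3990, 394 and 2960 on WT replicates 1, 2 and 3 and of 4189, 5117 and 8180 on KO replicates 1, 2 and 3. All KO arrays lay above all WT arrays, but KO replicate 1 exceeded WT replicate 1 by little. The log2 means were 10.73 ± 1.79 in WT and 12.45 ± 0.49 in KO (SD, n = 3 each), with an exact permutation p of 0.1, and the log2 fold change of 1.73 was 0.70 without WT replicate 2, the low array. With equal array medians the genotypes overlapped. The second Unc5c probe set read 673, 1333 and 252 in WT and 698, 742 and 448 in KO, and its log2 fold change was 0.00 (0.0022, standard error 0.98).

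Unc5d was the steadiest of the UNC5 genes across arrays. It is a marker of ganglion cells that respond to light onset, and the study also followed it by qPCR, where the paper reports no change in KO retinas. The primer pair of that assay is shown, since Unc5d is the member read in the study by a method other than the array; where it lies relative to the probe set is not known here.
Unc5d forward primer: ctcccatggctaggactctt
Unc5d reverse primer: cctcgatgaaatgaggcagc
The intensities of its 1 probe set were 3598, 1689 and 1772 on WT replicates 1, 2 and 3 and 3126, 2363 and 3510 on KO replicates 1, 2 and 3. WT replicate 1 was the highest array, and the other WT arrays lay below every KO array. On the log2 scale the KO mean was higher by 0.42 (standard error 0.92, exact permutation p = 0.4), with a 95% confidence interval of -1.59 to 2.43. It was 0.23 to 0.77 when an array was left out and 0.098 with equal array medians.

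**Figure D2:**
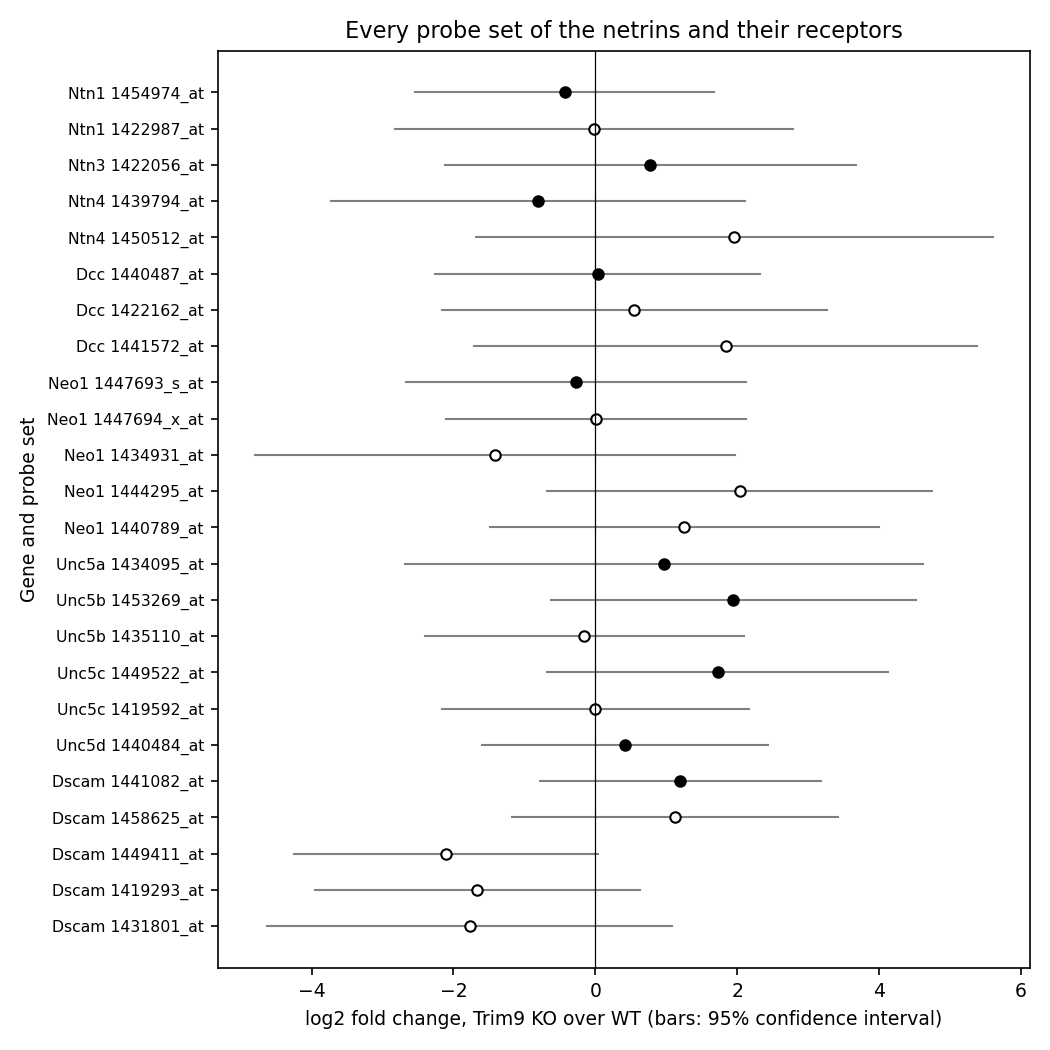
Log2 fold change, Trim9 KO over WT (x axis), of all 24 probe sets of the 10 genes (y axis), with bars for the 95% confidence interval; filled points are the brightest probe set of a gene. Every interval includes 0, and the Dscam probe sets lie on both sides, from -2.10 to 1.20.

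Dscam was the member with probe sets that separated the genotypes in opposite directions. DSCAM is a cell adhesion receptor of the immunoglobulin superfamily that also binds netrin-1. Its brightest probe set, 1441082_at, had intensities of 2144, 1388 and 1257 on WT replicates 1, 2 and 3 and of 3337, 4006 and 3471 on KO replicates 1, 2 and 3. All KO arrays lay above all WT arrays, and the spread within each genotype was small (log2 means 10.62 ± 0.41 in WT and 11.82 ± 0.14 in KO, SD, n = 3 each). This difference of 1.20 on the log2 scale had a 95% confidence interval of -0.77 to 3.18 and an exact permutation p of 0.1, and it was 1.05 to 1.43 when an array was left out. After quantile normalization it was 1.38 and the genotypes stayed apart; with equal array medians it was 0.88 and they overlapped.

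The Dscam probe set 1449411_at had the opposite order. Its intensities were 294, 1336 and 870 on WT replicates 1, 2 and 3 and 142, 114 and 212 on KO replicates 1, 2 and 3, so that every KO array was under every WT array, also after quantile normalization and with equal array medians. The log2 fold change was -2.10 (standard error 0.97, exact permutation p = 0.1), with an unadjusted p of 0.053 and an adjusted p of 0.999 in limma, and it was -2.71 to -1.65 when an array was left out. The unadjusted p fell under 0.05 in 6 of the 14 alternative settings that give this probe set a value, but the adjusted p in them was 0.614 to 1.

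The other Dscam probe sets were split. Probe set 1419293_at read 50.5, 495 and 161 in WT and 76.6, 36.2 and 23.2 in KO (log2 fold change -1.66, standard error 1.05), and the genotypes overlapped, but every KO array was under every WT array after quantile normalization and with equal array medians. Probe set 1431801_at read 93.6, 1026 and 10.6 in WT and 59.5, 16.6 and 15.1 in KO (-1.77, standard error 1.30), and -0.35 without WT replicate 2. Probe set 1458625_at read 718, 320 and 394 in WT and 3321, 465 and 636 in KO (1.12, standard error 1.05), and 0.27 without KO replicate 1. Both probe sets that the array annotation ties to a RefSeq mRNA of Dscam, 1449411_at and 1419293_at, were on the lower side, and the brightest one, tied to an expressed sequence tag, was on the higher side. Where each lies on the transcripts is not known here.

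A ratio within an array does not depend on the scaling of that array. The intensity of 1441082_at over that of 1449411_at was 7.29, 1.04 and 1.44 on WT replicates 1, 2 and 3 and 23.5, 35.1 and 16.4 on KO replicates 1, 2 and 3. The difference of the means was 3.42 on the log2 scale. This pair was chosen after its values were seen, because the KO arrays lay above the WT arrays in one and below them in the other, so the ratios had to separate and no test is given. Among 856 genes with 5 or more probe sets, 3.97% had probe sets that did not overlap between genotypes in opposite directions, as Dscam did.

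**Figure D3:**
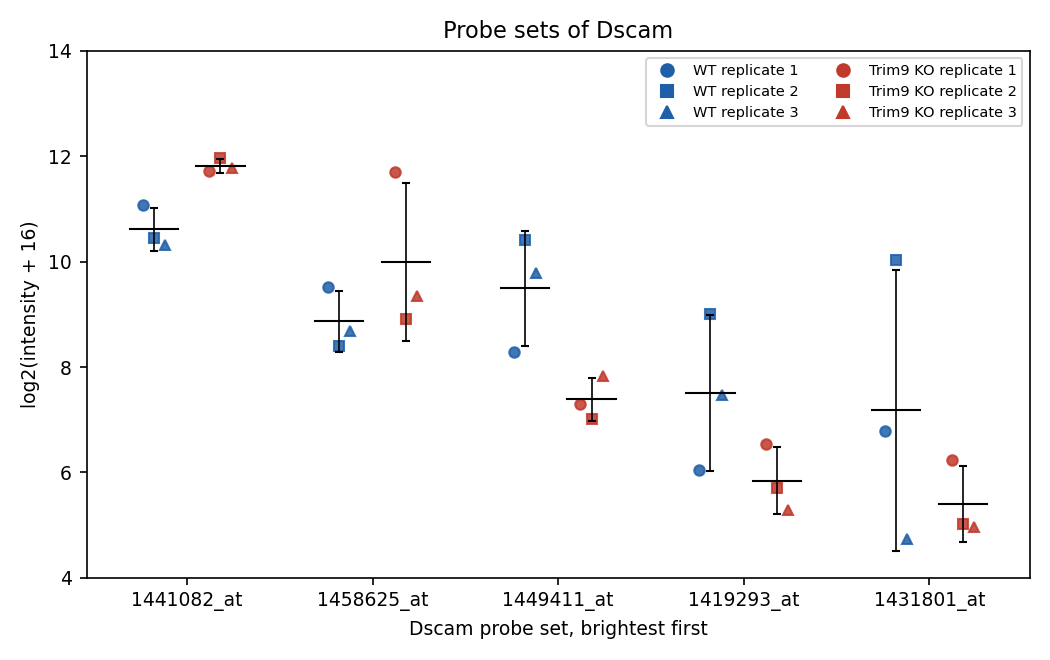
Log2(intensity + 16) (y axis) of the 5 Dscam probe sets (x axis, brightest first) on the 6 arrays; each point is an array (blue WT, red Trim9 KO), horizontal lines are means and bars are SDs. KO points lie above the WT points for 1441082_at and below them for 1449411_at.

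Of the 10 members, 2 (Unc5c and Dscam) had every KO array above every WT array, where 5.35% of all genes did, and 0 had every KO array below, where 2.89% did. Over the 24 probe sets, 2 lay above without overlap (5.16% of all probe sets) and 1 below (2.76%). It was 2 above and 2 below after quantile normalization, and 0 above and 2 below with equal array medians. The shares over all probe sets were not read under these scalings, so no background stands beside these counts. At an unadjusted p under 0.05, 0 of the 24 were found, beside 2.88% of all probe sets. Probe sets of a gene often differed in sign: of the 7 members with 2 or more probe sets, 4 had fold changes of both signs, and so did 62.4% of all such genes.

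Members also differed in how they varied across the arrays. Trim9 KO replicate 1 held the lowest of the 6 values for 4 members (Ntn1, Ntn4, Dcc and Neo1) and the highest for 3 (Ntn3, Unc5a and Unc5b), and over all genes it held the lowest for 22.3% and the highest for 31.3%. Without it, 8 of the 10 members had a higher mean in KO, since 5 took the opposite sign, and Unc5b, Unc5c, Unc5d, Dscam and Dcc stayed positive. Of 12055 genes brighter than the median of all probe sets, those whose pattern over the 6 arrays was most like that of Dcc were Il33 (Pearson's r 0.996, Spearman's rho 1), Capn7 (0.996 and 0.943) and 4833439L19Rik (0.995 and 0.943), and 235 genes had an r above 0.95. Those most like Ntn1 were Kif4 (0.985 and 0.943), Pth2 (0.981 and 0.943) and Rab10 (0.975 and 0.886), of 12056 genes. With 6 points that share the same arrays these values describe the patterns only.

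**Figure D4:**
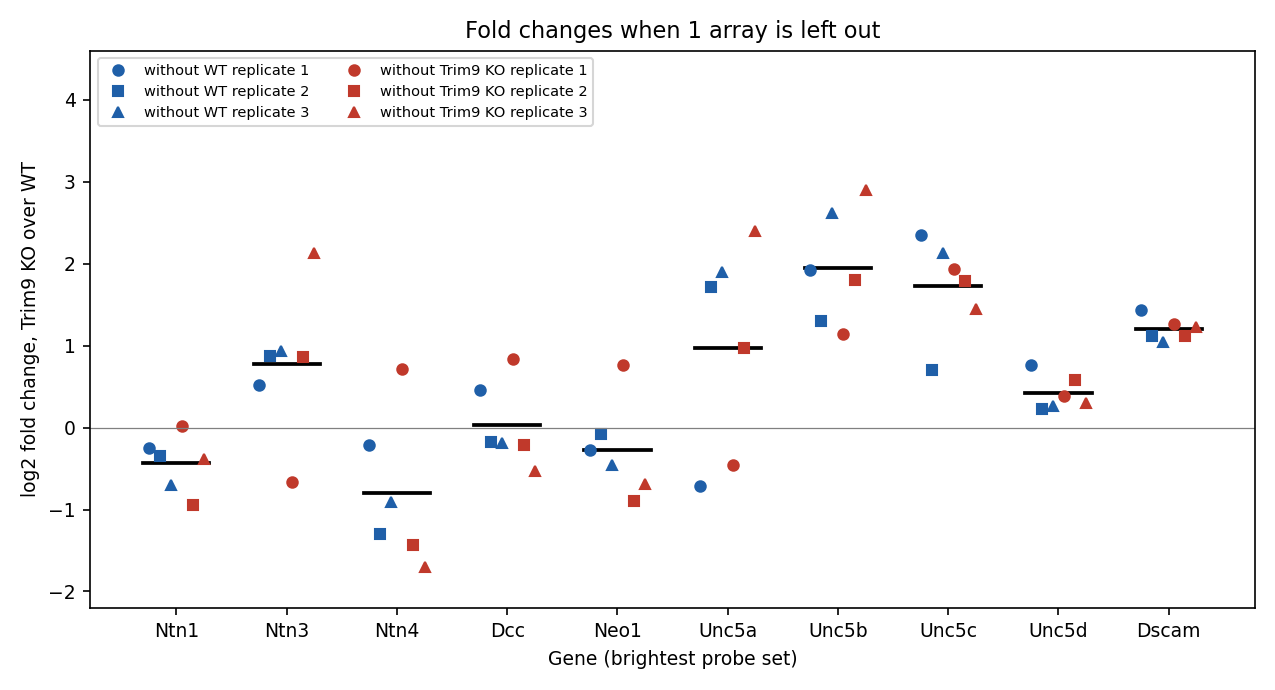
The y axis gives the log2 fold change (Trim9 KO over WT) and the x axis the gene, read by its brightest probe set, with all 6 arrays (black line) and with 1 array left out (points; blue for a WT and red for a KO array). Unc5b, Unc5c, Unc5d and Dscam stay above 0 whichever array is left out, whereas the other 6 genes fall on both sides.

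Genes around the netrin receptors were read from lists of known partners. Of 32 measured partner genes (9 further ligands of these receptors and 23 co-receptors and signaling proteins), 16 had a higher and 16 a lower mean in KO, with a median log2 fold change of -0.02 beside 0.14 over all genes. With equal array medians, 8 were higher and 24 lower (median -0.34 beside -0.19 over all genes). None was called in limma (0 of 32 at an adjusted p under 0.05, 1 at an unadjusted p under 0.05), and 0 lay apart between genotypes. Over all genes the shares were 0% and 2.56% for the p-values, and 5.35% lay apart above and 2.89% below. Among the 9 ligands 3 had a higher and 6 a lower mean (median -0.73). Draxin, a secreted guidance protein that binds DCC, had intensities of 236, 47.9 and 62.3 in WT and 2168, 594 and 214 in KO, and a log2 fold change of 2.64 (standard error 1.11, unadjusted p = 0.037, adjusted p = 0.999 in limma). KO replicate 3 fell below WT replicate 1, so the genotypes overlapped. The UNC5 ligand Flrt3 was at -1.62 (standard error 1.40), Cbln4 at -1.07 and the Neo1 ligand Hjv at 0.90.

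Of the 23 co-receptors and signaling proteins, 13 had a higher and 10 a lower mean (median 0.03). Those with the largest statistics were Myo10, a motor protein that carries netrin receptors into filopodia (-1.28, standard error 1.00), Maged1, a partner of UNC5A in cell death (-1.69), the caspase Casp9 (-1.36) and Wasl, which starts actin branching (1.32). Of 3 other netrin family genes, the membrane-bound netrin-G1 gene Ntng1 had a log2 fold change of -1.67 (standard error 1.10), Ntn5 of -0.62 and Ntng2 of 0.63; the netrin-G proteins do not bind DCC or the UNC5 receptors.

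On the TRIM9 side of the pathway, 5 of 6 genes, the deleted Trim9 among them, had a lower mean (median log2 fold change -0.74). Over all genes 44.8% had a lower mean in KO. Evl, an actin regulator of the Ena/VASP family, was at -3.27 (standard error 1.70), with intensities of 11200, 1657 and 12560 in WT and 35.3, 450 and 11010 in KO. The other Ena/VASP genes, Vasp and Enah, were each at -0.13 (standard errors 1.05 and 0.96). Trim9 was at -1.81 (standard error 0.99), the SNARE protein gene Snap25 at -1.34 and Trim67, the closest relative of Trim9, at 0.80. Among these 6 genes Trim9, the deleted gene, was the 1 whose genotypes did not overlap, with KO lower. The background for a separation in this direction was 2.89% of the 18193 genes.

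The tissue was checked against markers of the cells that use netrin receptors and of other cells an eye preparation can hold. Rod markers were bright, with a mean log2 intensity of 16.02 to 16.96 in WT and 15.46 to 16.73 in KO, and all 5 measured had a lower mean in KO (median log2 fold change -0.57; Sag -1.35 and Gnat1 -0.57). Of 8 ganglion cell markers, 5 had a higher mean (median 0.21), Pou4f1 at 1.73 (standard error 0.98) and Nefl at 0.20 among them. Their mean log2 intensity, 12.34 to 13.20 in WT and 12.77 to 13.13 in KO, overlapped between genotypes, and 4 of the 8 were higher after quantile normalization and 2 with equal array medians. For Pou4f1, under the name Brn3a, the paper reports no change by qPCR and no significant difference in counts of BRN3A-stained cells. Of 7 amacrine markers 6 had a lower mean (median -0.33; Gad1 -0.72, Pax6 -1.08), of 6 Müller glia markers 5 (median -0.88; Apoe -3.02, Clu 1.26), and of 4 bipolar markers 2 (median -0.12; Pcp2 -0.58, Prkca -0.24). Without KO replicate 1, 3 of the 6 Müller glia markers were lower, and all 5 rod markers were lower in that setting and under both other scalings. The rod mean overlapped between genotypes as deposited and after quantile normalization. It lay apart with equal array medians (16.25 to 17.26 in WT, 15.29 to 16.16 in KO) and without KO replicate 1 (15.46 to 15.50 in KO). Of these settings, the Müller glia mean lay apart only after quantile normalization (13.56 to 14.69 in WT, 11.98 to 13.44 in KO).

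Among markers of non-neural cells, all 6 of the pigment epithelium had a higher mean in KO (median 1.16; Mlana 2.59, Ttr 1.70), and their mean log2 intensity, 10.09 to 10.72 on the WT and 10.91 to 12.21 on the KO arrays, did not overlap. The mean of 4 astrocyte markers did not overlap either (3 higher, median 0.58; Gfap 2.62, Pdgfra 0.90), at 9.13 to 9.82 in WT and 9.93 to 10.63 in KO. All 6 pigment epithelium markers stayed higher under both other scalings and 5 did without KO replicate 1, but their mean overlapped between genotypes under both scalings, and that of the astrocyte markers with equal array medians. Means that lay apart were not particular to these markers. That of the netrin members was 9.48 to 9.998 in WT and 10.03 to 10.72 in KO. Those of the TRIM9 side of the pathway and of the other netrin family genes also lay apart, with KO lower. The TRIM9 side includes Trim9, the gene deleted in KO, and its mean without Trim9 was not read. For the netrin members, the TRIM9 side and the other netrin family genes, the genotypes overlapped under both other scalings. Of 6 pericyte markers 3 had a higher mean (median 0.06; Cspg4 2.26, Rgs5 0.17), at 9.35 to 9.55 in WT and 9.30 to 10.24 in KO. Without KO replicate 1, 4 were higher (median 0.77) and the KO arrays, at 9.75 to 10.24, lay above the WT arrays, whereas with equal array medians the median was -0.26. Of 6 lens markers 5 did (median 0.77; Crygs 1.91, Bfsp1 0.85), at 5.77 to 8.20 in WT and 6.43 to 8.36 in KO. In the endothelial list, Pecam1 was at 1.59 and Esam at 0.08. No listed marker was at 0 on any array, and none was called in limma at an adjusted p under 0.05. The part of pigment epithelium or astrocyte RNA in the values of the netrin receptors was not tested.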

How the data were processed

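The deposited values are linear intensities, 1 column for each of the 6 arrays. MAS5 stands in the submitters' processing notes, with no version, whereas RMA stands in the methods of the paper; the values are linear with unequal medians and share a 2% trimmed mean of 1500, which is not the form of RMA output. Scanner files were not used here.

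After removal of 64 controls, 45037 probe sets were put on the scale log2(intensity + 16). Genotypes were compared by limma 3.58.1 (R 4.3.3; lmFit, eBayes) without filter or block. Of the probe sets, 34945 named 1 gene, which gave 18193 genes, and gene numbers tied 99.4% of these 34945 probe sets to the RefSeq gene table. Figures were drawn with Python 3.11.15 and matplotlib 3.10.9. Alternatives were other normalizations, pseudocounts of 1 and 64, a filter on dim probe sets, the replicate number as a block, a trend with a robust prior, array weights, averaging the probe sets of a gene and leaving out each array. All members were named. Of each list of pathway genes, up to 4 with the largest limma statistic were named, and Vasp and Enah besides. Of each marker list, the brightest and the one with the largest statistic were named. For Dcc and Ntn1 the 3 genes most alike in pattern were named. Members and lists were chosen with earlier results of these data known. Some listed genes were not analysed here.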

Additional observations from a re-analysis of the deposited data

How the results depend on the processing

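Of the 10 members and of the 32 partner genes, 0 were called in limma in the main setting and in each of the 15 alternatives, as were 0 of all features tested, so these counts say nothing particular about them. The median log2 fold change of the members was 0.28 (equal array medians) to 0.76, and that of the partner genes -0.34 (equal array medians) to -0.01. Both moved by less than the SD of the per-array medians between replicates (0.69 for the members, 0.49 for the partner genes). That SD includes differences in brightness between arrays and exceeds the member median of 0.60. Staying within it therefore does not show that the median is stable. Over all genes the median was 0.14, 0.02 after quantile normalization and -0.19 with equal array medians, beside member medians of 0.60, 0.50 and 0.28. Unc5b, Unc5c and Unc5d had a higher KO mean in every alternative run, but averaging the probe sets took Unc5b from 1.95 to 0.90 and Unc5c from 1.73 to 0.86, and equal array medians took Unc5d from 0.42 to 0.098. Dscam turned to -0.64 when its probe sets were averaged, and averaging also turned Ntn4 to 0.58 and Neo1 to 0.33. With array weights Ntn1 was at 0.30, Ntn4 at 0.24 and Neo1 at 0.73. Dcc was at -0.15 after quantile normalization and -0.29 with equal array medians, but at 0.59 with array weights and 0.81 when its probe sets were averaged. When 1 array was left out, the log2 fold change was -0.94 to 0.021 for Ntn1, -0.67 to 2.13 for Ntn3, -1.70 to 0.72 for Ntn4, -0.53 to 0.84 for Dcc, -0.89 to 0.77 for Neo1 and -0.71 to 2.40 for Unc5a. The cause was not tested. Ntn1, Ntn3 and Unc5b have no value after dim probe sets were left out.

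Same-numbered WT and KO samples did not deviate together (r of deviations from the group means -0.23, -0.08 and 0.03 for numbers 1, 2 and 3), and WT replicate 1 was most like KO replicate 3 (0.28). Deviations from the mean of 3 arrays sum to 0 within a genotype, so these values cannot decide whether littermates were paired. With the replicate block 0 members and 0 partner genes were called. Each replicate number has 1 WT and 1 KO array, so the block cannot change a log2 fold change. The medians of 0.60 and -0.02 therefore had to stay the same.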
